A study of Mus musculus with 75 samples.

Results

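The 8 genes followed here are best known from other organs, and were read in messenger RNA of mouse brain with altered DNMT3A. They are Otoa, Dct, Rtp1, Tspear, Lcn8, Sec14l4, Serhl and Sdsl, 8 of the 37310 gene identifiers counted in cortex and neuron nuclei and of the 55487 counted in hippocampus. They were chosen by name, as genes near silence in wild type brain with reads in mutants, and that choice used the measured values of the Dnmt3a1-/- comparisons in cortex, hippocampus and neuron nuclei. In those comparisons their values are therefore a description, with no test.

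The samples were C57BL/6 mice at postnatal day 21, all with the same labelled strain and age. In cerebral cortex there were 3 Dnmt3a1-/- libraries beside 3 wild type libraries (plain numbers in their titles), 2 Dnmt3a2-/- beside 2 wild type (numbers with r) and 3 Dnmt3a1_delta_N beside 3 wild type (numbers with n). Hippocampus gave 3 Dnmt3a1-/- and 3 wild type libraries. Cortical nuclei, released by douncing and then sorted by staining for NEUN, a protein of neuron nuclei, gave 2 libraries labelled Dnmt3a1-/- and 2 wild type. Together these are 26 RNA libraries in 10 groups out of 75 samples. The labels name genotypes only: they do not describe the alleles, give the sex, or say which libraries are from different animals. The p-values thus measure only the spread between these libraries, which may be technical. The tie of each wild type series to a mutant was read from the numbering and is not stated in the labels.

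DNMT3A adds methyl groups to cytosines of DNA, mostly where a cytosine precedes a guanine (CpG) and, in neurons after birth, also at other cytosines. The gene makes a long protein, DNMT3A1, and a short one, DNMT3A2, which is without its N-terminal stretch. Promoters rich in CpG are usually unmethylated in all tissues, whereas promoters poor in CpG are often methylated where their gene is silent. Otoa encodes otoancorin, which anchors the gel of the inner ear to the cells beneath it, and Tspear a secreted protein with EAR repeats linked to hearing, teeth and hair follicles. Dct encodes dopachrome tautomerase, an enzyme of melanin synthesis in pigment cells. Rtp1 helps odorant receptors reach the surface of olfactory neurons. Lcn8 is a lipocalin of the epididymis, from a family of small carriers of lipophilic molecules, and Sec14l4 belongs to the SEC14-like lipid-binding proteins. Serhl is a serine hydrolase-like protein, and Sdsl is related to serine dehydratase, a liver enzyme that breaks down serine and threonine.

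The promoter windows of 4 of the 8 genes, Otoa, Dct, Lcn8 and Serhl, were found in RefSeq's table for the build GRCm38.p6. They are shown because the altered enzyme acts on CpG, and capitals mark every CpG. Each runs 5′ to 3′ on the gene's own strand, from 250 bases before to 50 bases after the annotated start. The Otoa window is chr7:121083174-121083473 on the plus strand, the Dct window chr14:118052197-118052496 on the minus strand, the Lcn8 window chr2:25652868-25653167 on the plus strand and the Serhl window chr15:83099955-83100254 on the plus strand. Rtp1, Tspear, Sec14l4 and Sdsl were not matched.
Otoa: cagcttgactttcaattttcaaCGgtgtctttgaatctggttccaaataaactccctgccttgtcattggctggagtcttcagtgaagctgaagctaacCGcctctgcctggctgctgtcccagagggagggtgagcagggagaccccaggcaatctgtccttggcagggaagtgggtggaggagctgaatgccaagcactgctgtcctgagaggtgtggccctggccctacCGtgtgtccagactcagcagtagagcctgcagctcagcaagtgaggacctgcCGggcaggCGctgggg
Dct: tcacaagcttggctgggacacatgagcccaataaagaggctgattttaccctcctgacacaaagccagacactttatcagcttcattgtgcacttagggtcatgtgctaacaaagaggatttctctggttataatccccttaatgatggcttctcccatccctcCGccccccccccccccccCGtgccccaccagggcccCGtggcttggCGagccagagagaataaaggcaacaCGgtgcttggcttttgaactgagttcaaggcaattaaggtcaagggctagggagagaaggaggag
Lcn8: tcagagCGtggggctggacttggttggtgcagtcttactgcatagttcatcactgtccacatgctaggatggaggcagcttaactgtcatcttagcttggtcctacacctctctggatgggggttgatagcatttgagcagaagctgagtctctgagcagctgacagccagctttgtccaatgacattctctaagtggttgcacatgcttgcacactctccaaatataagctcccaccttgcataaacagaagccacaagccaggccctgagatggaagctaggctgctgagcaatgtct
Serhl: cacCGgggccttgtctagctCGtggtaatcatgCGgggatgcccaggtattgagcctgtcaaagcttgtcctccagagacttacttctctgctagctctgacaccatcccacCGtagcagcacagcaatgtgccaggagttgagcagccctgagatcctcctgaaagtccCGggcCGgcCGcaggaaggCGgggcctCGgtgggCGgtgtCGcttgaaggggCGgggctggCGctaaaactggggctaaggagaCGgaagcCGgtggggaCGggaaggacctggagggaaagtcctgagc

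All of these windows but that of Serhl are poor in CpG. Lcn8 has 1 CpG in 300 bases, and Otoa and Dct have 5 each, against a median of 7 and quartiles of 3 and 20 over all 32851 windows of 27025 genes. Serhl has 16 CpG, more than 67% of all windows. The ratio of observed to expected CpG was 0.0527 for Lcn8, 0.200 for Otoa, 0.236 for Dct and 0.561 for Serhl, with a median of 0.384 over all windows. Short motifs were searched for on both strands. CATGTG, a form of the E-box that factors of the MITF family can bind, matched 2 times in Dct and 2 times in Lcn8, and 14.2% of all windows hold it. The palindromic E-box CACGTG was in none of the 4 windows and is held by 7.15% of all windows. GGGCGG, the GC box, matched 1 time in Dct and 2 times in Serhl, with 35.7% of all windows holding it. TGACGTCA and TATAAA matched in none of the 4, and 1.79% and 13.6% of all windows hold them. A match describes letters and is not evidence of a bound site, and the DNA methylation samples of the series were not analysed here.

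**Figure D1:**
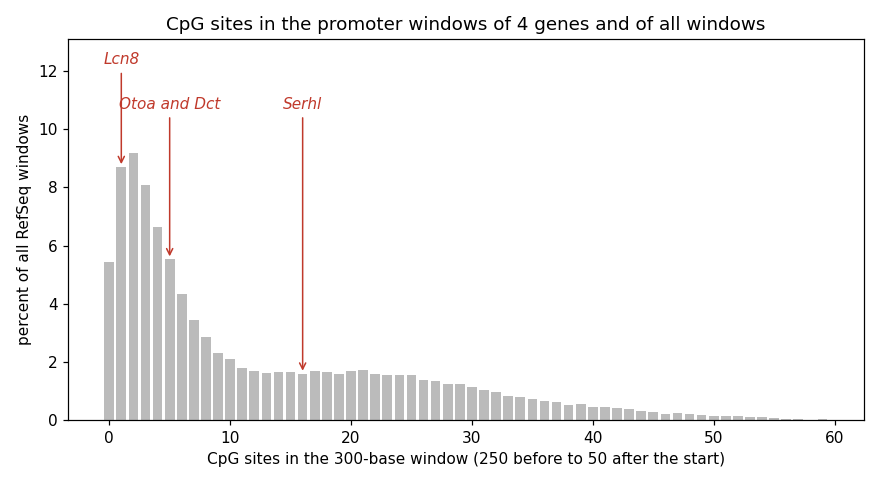
Bars give the percent of all RefSeq promoter windows (y axis) with each number of CpG sites in 300 bases (x axis); arrows mark 4 of the genes. Lcn8 (1 site), Otoa and Dct (5 sites each) lie below the median of 7, and Serhl (16 sites) above it.

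Library depth and the labels were checked first. Gene totals ran from 8.7 to 39 M (mega) counts per library. Dnmt3a itself was 76.0 ± 4.14 CPM (counts per M gene counts; mean ± SD, n = 3) in cortex Dnmt3a1-/- against 154 ± 10.2 in wild type, and 73.3 ± 2.49 against 149 ± 14.2 CPM in hippocampus (n = 3 each). These are log2 fold changes of -1.02 ± 0.07 (SE) with an adjusted p of 1.2e-05 and -1.04 ± 0.09 with an adjusted p of 0.00011 (edgeR quasi-likelihood test, Benjamini-Hochberg adjustment over all genes tested). In the nuclei labelled Dnmt3a1-/- it was 375 ± 8.64 CPM against 402 ± 4.71 (n = 2 each), a log2 fold change of -0.10 ± 0.15 with an adjusted p of 0.90. Gene counts do not separate the isoforms, but since Dnmt3a did not pass the test there as it did in tissue, these nuclei are named by their label throughout. Summed markers set the sorted nuclei apart from tissue: astrocyte markers gave 561 to 765 CPM per nuclei library and 11215 to 16927 CPM per cortex library.

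Only some of the 8 genes were near silence in wild type. Over the 8 wild type cortex libraries Lcn8 lay between 0 and 0.0731 CPM, Sec14l4 between 0 and 0.168, Tspear between 0.11 and 0.245 and Otoa between 0.164 and 0.732. Dct lay between 0.9 and 2.78 CPM, Rtp1 between 0.951 and 2.48 and Sdsl between 1.74 and 3.22. Serhl lay between 6.97 and 11.6 CPM and was not near silence in cortex or hippocampus, though in wild type nuclei it was at 0.483 and 0.537 CPM. CPM does not correct for transcript length, so these levels are compared within a gene and not between genes. The hippocampus files list more genes than the cortex files, so levels set across them are on separately made totals. Fewer cells making a transcript and less transcript per cell cannot be told apart in such libraries.

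**Figure D2:**
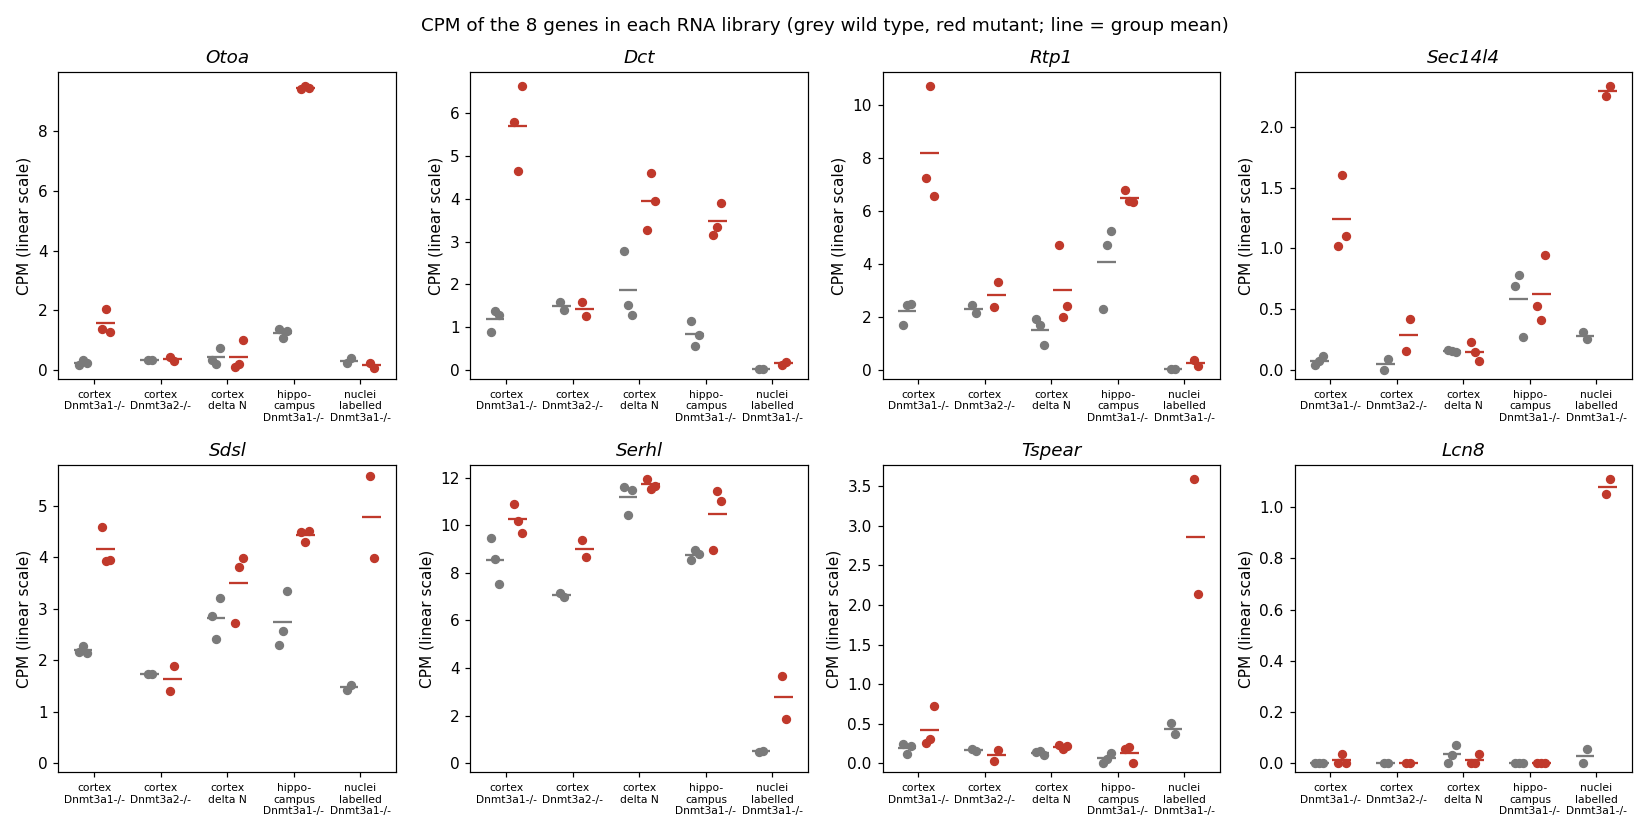
CPM (linear y axis, own scale per gene) of each gene in each of the 26 libraries, with the 5 comparisons along the x axis, wild type in grey, mutants in red and group means as lines. Otoa stands out in hippocampus Dnmt3a1-/- (9.42 to 9.51 CPM), whereas Tspear and Lcn8 are highest in the nuclei labelled Dnmt3a1-/-.

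In cortex Dnmt3a1-/- all mutant libraries lay above all their wild type libraries for 7 of the 8 genes, the exception being Lcn8. Such separation with the mutant higher was seen for 18.4% of the 15935 genes tested, and 8.95% were called higher (adjusted p under 0.05). Since the choice of genes used this comparison, nothing is read from the count. The median log2 fold change of the 8 was 1.90 and that of all genes tested 0.00609. Of the 8, 6 passed the filter on low counts, Tspear and Lcn8 being kept in the fit although they did not.

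Otoa was at 0.164, 0.335 and 0.225 CPM in wild type cortex and at 1.36, 2.06 and 1.29 CPM in Dnmt3a1-/- cortex, from 17 and 104 counts. Every mutant library lay above every wild type library, and the fitted log2 fold change was 2.68 ± 0.35. Its level was highest of all in hippocampus. Wild type hippocampus gave 1.38, 1.07 and 1.30 CPM and Dnmt3a1-/- hippocampus 9.42, 9.51 and 9.42 CPM, a log2 fold change of 2.92 ± 0.19. The 3 mutant hippocampus libraries were nearly level with one another, and wild type hippocampus was close to mutant cortex. In nuclei the wild type libraries gave 0.227 and 0.395 CPM and those labelled Dnmt3a1-/- 0.230 and 0.0791 CPM, from 22 and 11 counts. The groups overlapped there, with a log2 fold change of -0.87 ± 0.64, so Otoa was the one gene of the 8 without a higher level in the labelled nuclei. Over the 10 groups the order of its means was led by mutant hippocampus, mutant cortex and wild type hippocampus, and the other 7 groups, from 0.155 to 0.449 CPM, differed by less than the spread of Dnmt3a1_delta_N cortex (SD 0.499 CPM).

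Tspear, the other gene linked to hearing, followed another order. Wild type nuclei gave 0.511 and 0.367 CPM and the nuclei labelled Dnmt3a1-/- 3.59 and 2.14 CPM, from 31 and 194 counts. Both labelled libraries lay well above both wild type libraries, with a log2 fold change of 2.72 ± 0.36. In cortex the wild type libraries gave 0.245, 0.112 and 0.225 CPM and Dnmt3a1-/- 0.255, 0.305 and 0.721 CPM, from 13 and 30 counts. The nearest libraries of the groups were almost level, and mutant library 3 alone carried most of the log2 fold change of 1.27 ± 0.52, which was 0.59 without it. In hippocampus 3 counts in wild type and 5 in Dnmt3a1-/- gave a ratio of CPM of 1.39, with an exact counting interval of 0.271 to 8.98, and the groups overlapped. Next below the labelled nuclei in the order of means were wild type nuclei at 0.439 CPM and mutant cortex at 0.427 CPM, which did not differ beyond their SDs of 0.102 and 0.256.

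Dct was at 0.9, 1.38 and 1.29 CPM in wild type cortex and at 5.79, 4.65 and 6.64 CPM in Dnmt3a1-/- cortex. The log2 fold change was 2.25 ± 0.21, and each mutant library also lay above all 8 wild type cortex libraries. In hippocampus the wild type libraries gave 1.15, 0.561 and 0.819 CPM and the mutants 3.17, 3.35 and 3.92 CPM. The groups did not overlap and the log2 fold change was 2.13 ± 0.29. In nuclei 2 counts in wild type (0.0284 and 0.0282 CPM) faced 10 in the labelled libraries (0.128 and 0.198 CPM), a ratio of 5.49 with a counting interval of 1.17 to 51.5. Its lowest levels over the 10 groups were those of the nuclei.

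Rtp1 was at 1.72, 2.46 and 2.48 CPM in wild type cortex and at 7.24, 10.7 and 6.56 CPM in Dnmt3a1-/- cortex, a log2 fold change of 1.90 ± 0.21. Wild type hippocampus gave 2.31, 4.71 and 5.26 CPM, a range that overlapped wild type cortex, and the mutant libraries there gave 6.78, 6.36 and 6.33 CPM. The hippocampus groups did not overlap, but the difference was small beside that in cortex, at 0.59 ± 0.23 on the log2 scale, and the wild type libraries were spread widely. In nuclei 4 counts faced 19, at 0.0568 and 0.0565 CPM in wild type and 0.384 and 0.158 CPM in the labelled libraries, a log2 fold change of 2.28 ± 0.79.

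Lcn8 had at most 2 counts in any tissue library and none in hippocampus, where 3 counts, the most that a count of 0 allows, would be 0.129 to 0.346 CPM per library. In nuclei it had 0 and 2 counts in wild type and 41 and 28 counts in the libraries labelled Dnmt3a1-/-. These are 0 and 0.0565 CPM against 1.05 and 1.11 CPM, a ratio of 37.9 with a counting interval of 10.1 to 319. Both labelled libraries were far above both wild type libraries, and the interval covers counting error only.

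Sec14l4 stood apart in both cortex and nuclei. In cortex the wild type libraries gave 0.0409, 0.0745 and 0.112 CPM (1, 2 and 2 counts) and Dnmt3a1-/- 1.02, 1.60 and 1.10 CPM (12, 42 and 29 counts). No library came near the other group, and the log2 fold change was 4.04 ± 0.45. In nuclei the wild type libraries gave 0.313 and 0.254 CPM and the labelled libraries 2.25 and 2.33 CPM, a log2 fold change of 3.00 ± 0.37. Hippocampus differed from both: 0.691, 0.785 and 0.273 CPM in wild type and 0.528, 0.410 and 0.947 CPM in Dnmt3a1-/-, with overlapping groups and a log2 fold change of 0.20 ± 0.47. The order of its means ran from labelled nuclei and mutant cortex down to mutant and wild type hippocampus, the last of these at 0.628 and 0.583 CPM and within their SDs of 0.282 and 0.273.

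Serhl differed little between the groups in tissue and most in nuclei. Wild type cortex gave 9.45, 8.57 and 7.54 CPM and Dnmt3a1-/- cortex 10.9, 10.2 and 9.67 CPM, a log2 fold change of 0.25 ± 0.11. Wild type hippocampus gave 8.53, 8.97 and 8.80 CPM and mutant hippocampus 8.98, 11.4 and 11 CPM, again 0.25 ± 0.14 on the log2 scale. In both tissues the nearest libraries of the groups almost met. In nuclei the libraries labelled Dnmt3a1-/- reached 3.69 and 1.86 CPM from 0.483 and 0.537 CPM in wild type, a log2 fold change of 2.46 ± 0.37. Even so, the labelled nuclei stayed below every tissue library in CPM.

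Sdsl was higher in all 3 materials. In cortex the wild type libraries lay close together at 2.17, 2.27 and 2.14 CPM, and Dnmt3a1-/- gave 4.60, 3.93 and 3.95 CPM, a log2 fold change of 0.90 ± 0.16. In hippocampus 2.31, 2.58 and 3.34 CPM in wild type faced 4.49, 4.31 and 4.52 CPM in mutants, a log2 fold change of 0.66 ± 0.20. In nuclei 1.42 and 1.53 CPM in wild type faced 5.58 and 4.0 CPM in the labelled libraries, a log2 fold change of 1.71 ± 0.26. The 3 mutant groups had like means, 4.79, 4.44 and 4.16 CPM, which did not differ beyond the SD of 1.12 CPM in the labelled nuclei.

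Counted by group, hippocampus Dnmt3a1-/- lay above wild type without overlap for 5 of the 8 genes (Otoa, Dct, Rtp1, Serhl and Sdsl), where 13.9% of the 15729 genes tested did so and 1.65% were called higher. The labelled nuclei lay above wild type for 7 of the 8, all but Otoa, where 18.9% of 15863 genes did so and 0.214% were called higher. Both comparisons were used in choosing the genes, and nothing is read from these counts. The median log2 fold change of the 8 was 0.52 in hippocampus (0.59 without Lcn8) and 2.40 in nuclei (2.33 without Lcn8). The medians over all genes tested were 0.00512 and -0.011. Whether a gene's difference was larger in nuclei than in tissue was not tested.

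**Figure D3:**
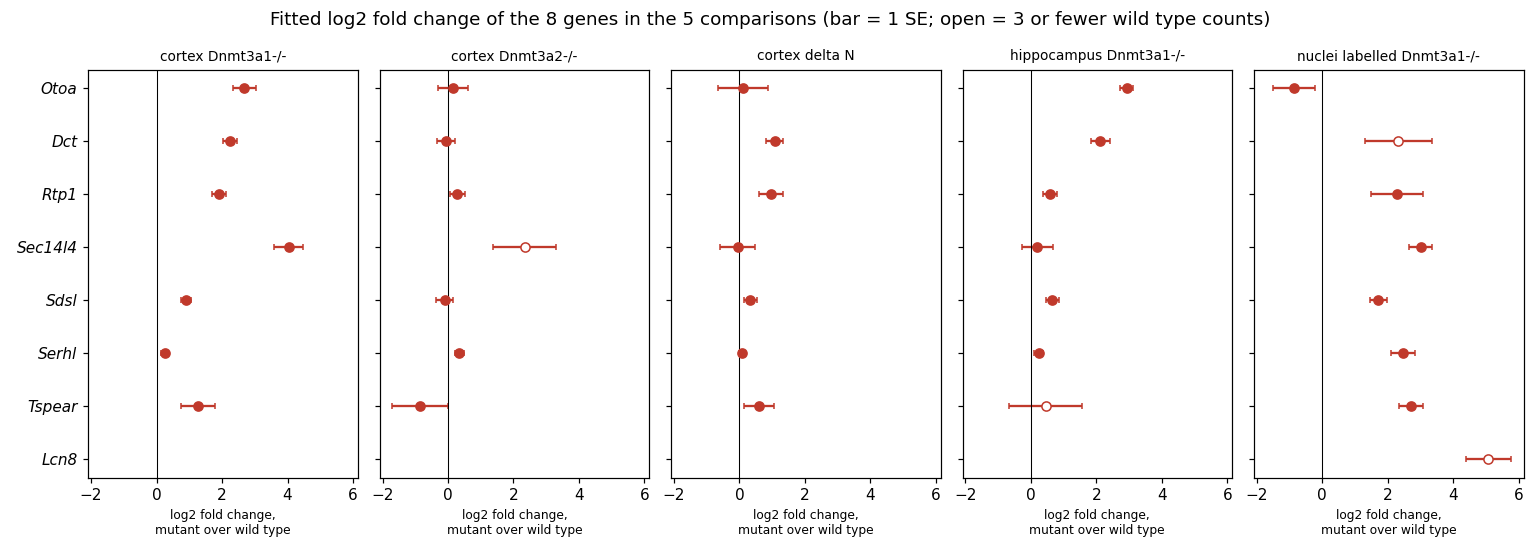
Fitted log2 fold change, mutant over wild type (x axis), of each gene in the 5 comparisons, with bars of 1 SE; genes with 4 or fewer counts in a comparison are left out, and open points have 3 or fewer wild type counts. Otoa lies at 2.68 in cortex and 2.92 in hippocampus Dnmt3a1-/- but at -0.87 in the labelled nuclei, and most values in Dnmt3a2-/- and Dnmt3a1_delta_N lie nearer 0.

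The other mutants of the series were tested, with results of these data known when the genes were chosen. In cortex Dnmt3a2-/- none of the 8 genes passed the edgeR test (adjusted p = 1 for each). There, 0.00628% of the 15932 genes tested were called, 1 gene, and 462 genes had an unadjusted p under 0.05. These include 2 of the 8, Sec14l4 and Serhl. DESeq2 and the blocked fit called none of the 8 either. Otoa gave 0.326 and 0.341 CPM in wild type and 0.436 and 0.294 CPM in Dnmt3a2-/-, Dct 1.59 and 1.40 against 1.59 and 1.26 CPM, and Rtp1 2.46 and 2.17 against 2.37 and 3.32 CPM. Their log2 fold changes were 0.15 ± 0.47, -0.06 ± 0.26 and 0.28 ± 0.23, and in each the groups overlapped. Sec14l4 had 0 and 3 counts in wild type and 5 and 10 in Dnmt3a2-/- (0 and 0.0930 against 0.156 and 0.420 CPM), a ratio of 5.35 with a counting interval of 1.51 to 28.8. Serhl was at 7.14 and 6.97 CPM in wild type and at 9.37 and 8.65 CPM in Dnmt3a2-/-, a log2 fold change of 0.35 ± 0.15. These 2 of the 8 genes lay above wild type without overlap, as did 14.8% of all genes tested, and against all 8 wild type libraries the log2 fold change of Serhl was -0.04. Sdsl gave 1.74 in both wild type libraries and 1.40 and 1.89 CPM in Dnmt3a2-/-, Tspear had 10 and 5 counts, and Lcn8 had none in these 4 libraries. With 2 libraries a group, the test has little precision for genes of so few counts.

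In cortex Dnmt3a1_delta_N, too, none of the 8 passed the edgeR test, and 0% of the 15884 genes tested were called. An unadjusted p under 0.05 was reached by 1275 genes, among them 2 of the 8, Dct and Rtp1. With replicate number as a block in edgeR, 124 genes (0.781%) were called, none of the 8 among them. DESeq2 called 43 genes and gave no adjusted p to the 7 of them with more than 3 counts in a group. Dct came nearest: 2.78, 1.53 and 1.28 CPM in wild type and 3.27, 4.61 and 3.94 CPM in Dnmt3a1_delta_N. No mutant library lay as low as a wild type library, and the log2 fold change was 1.08 ± 0.26 with an adjusted p of 0.46. Rtp1 gave 1.91, 1.72 and 0.951 CPM in wild type and 4.71, 1.99 and 2.41 CPM in Dnmt3a1_delta_N. The groups were apart, one mutant library was far above the others, and the log2 fold change was 0.97 ± 0.36 with an adjusted p of 0.58. Without that library, number 1, it was 0.52. Tspear had 13 counts in wild type and 18 in Dnmt3a1_delta_N, at 0.11 to 0.156 and 0.178 to 0.234 CPM, with a log2 fold change of 0.61 ± 0.46 and an adjusted p of 0.82. Dct, Rtp1 and Tspear are the 3 of the 8 genes whose mutant libraries all lay higher, as they did for 5.74% of all genes tested.

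Otoa did not follow them in Dnmt3a1_delta_N. It gave 0.337, 0.219 and 0.732 CPM in wild type and 0.117, 0.208 and 1.02 CPM in the mutants, so that the library numbered 3 was the highest in both groups. The log2 fold change of 0.11 ± 0.78 (adjusted p = 0.99) ran from -1.29 to 0.68 over the alternatives, lowest without mutant library 3. Sec14l4, Serhl and Sdsl had log2 fold changes of -0.06 ± 0.52, 0.08 ± 0.09 and 0.33 ± 0.19, with adjusted p of 0.99, 0.87 and 0.70 and overlapping groups. Lcn8 had 3 counts in wild type and 1 in the mutants. The median over the 8 genes was 0.22 in Dnmt3a1_delta_N (0.33 without Lcn8) and 0.08 in Dnmt3a2-/- (0.15 without Lcn8), with 0.00546 and 0.000957 over all genes tested.

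The genes beside the 8 were compared, taking the nearest listed gene on each side from RefSeq's gene order (build GRCm38.p6, used for order alone). In no comparison was any of these 16 neighbours called higher. In cortex Dnmt3a1-/- 12 of the 16 could be tested, and 2 fell, with 8.91% of all genes called lower. Hs3st2, a heparan sulfate sulfotransferase gene next to Otoa, fell by 0.83 ± 0.11 on the log2 scale (adjusted p = 0.00037, edgeR), from 42.1 ± 5.57 to 23.6 ± 1.75 CPM (SD, n = 3), and its mutant libraries all lay below wild type. Lrrc3, next to Tspear, had a log2 fold change of -0.30 ± 0.09 with an adjusted p of 0.04 in edgeR. That call was lost on leaving out any 1 of the 6 libraries and with DESeq2, and its adjusted p ran from 0.012 to 0.12 over the alternatives. St6gal1, a sialyltransferase gene next to Rtp1, was not called (0.18 ± 0.08, adjusted p = 0.13) but passed with the replicate number as a block (adjusted p = 0.045) and against all 8 wild type libraries (adjusted p = 0.048), within a range of 0.045 to 0.41. None of the neighbours passed in edgeR, with or without the block, in the other 4 comparisons, where 10 to 12 were tested. An unadjusted p under 0.05 was reached by 1 in Dnmt3a2-/-, 2 in Dnmt3a1_delta_N, 0 in hippocampus and 1 in nuclei. Their log2 fold changes in cortex Dnmt3a1-/- ran from -0.83 to 0.23.

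**Figure D4:**
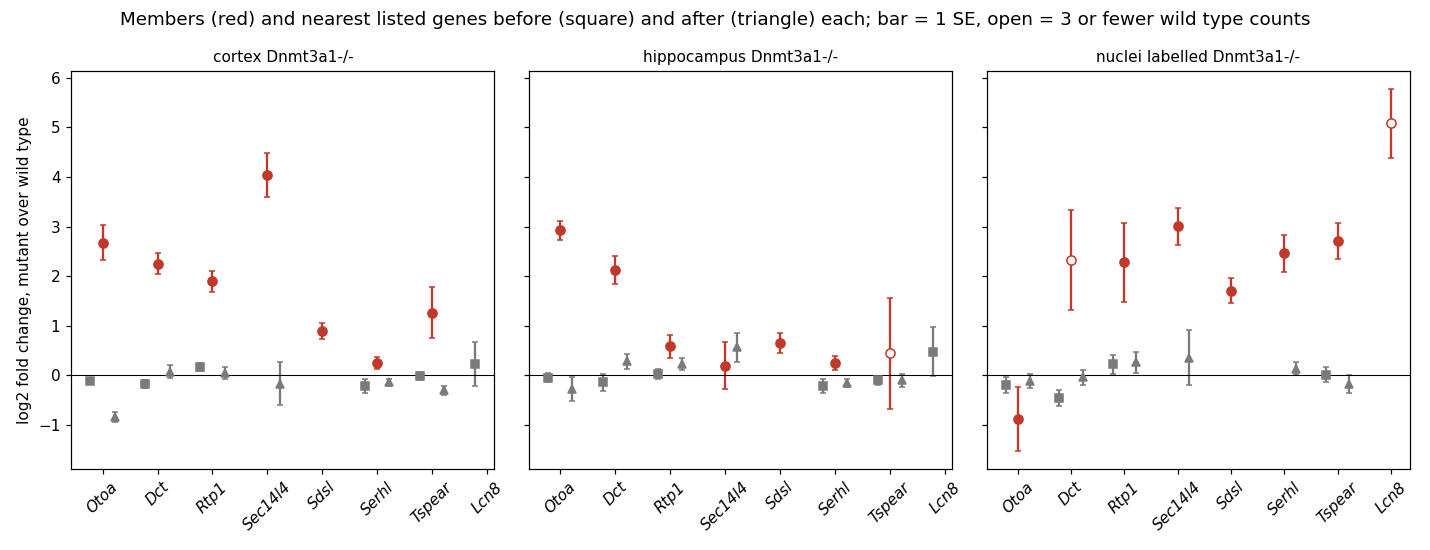
Log2 fold change, mutant over wild type (y axis), of each gene (red circles) and of its nearest listed gene before (grey squares) and after it (grey triangles), with bars of 1 SE, in 3 comparisons; only neighbours with enough counts are drawn. Neighbours lie between -0.83 and 0.57 in these comparisons, and Otoa reaches 2.68 in cortex and 2.92 in hippocampus.

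Some neighbours are relatives of the gene beside them. Sds encodes serine dehydratase and lies next to Sdsl. It had too few counts for the test, but its 22 counts in cortex Dnmt3a1-/- (0.255 to 0.457 CPM) against 4 in wild type (0 to 0.112 CPM) and its 29 in hippocampus (0.479 to 0.704 CPM) against 11 (0.224 to 0.341 CPM) put every mutant library above wild type. In nuclei it had 1 count in the labelled libraries and 3 in wild type, whereas Sdsl was higher there. Reads of such related genes may be shared, and how reads that fit both were counted is not given in the sources used here. Sec14l3, next to Sec14l4 and of the same family, gave 0.969 ± 0.0127 CPM in wild type and 1.05 ± 0.863 CPM in Dnmt3a1-/- cortex, with a log2 fold change of -0.16 ± 0.44 (adjusted p = 0.84, edgeR). In nuclei it was 0.36 ± 0.56 (adjusted p = 0.90). Rrp7a overlaps Serhl, and had log2 fold changes of -0.14 ± 0.07 in cortex Dnmt3a1-/- and 0.14 ± 0.13 in the nuclei, with adjusted p of 0.19 and 0.83. Over 11 alternatives in cortex Dnmt3a1-/- its log2 fold change ran from -0.55 to -0.11. Its adjusted p ran from 0.041 to 0.44 there, with a call under 1 alternative. Tspear encloses other listed genes, so some of the reads given to it may be theirs.

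The rest of each gene's pathway was counted from lists chosen for its function, leaving out the 8 themselves. Of the melanin and pigment cell list 11 of 19 genes were tested in cortex Dnmt3a1-/-. Their median log2 fold change was 0.303, with 9 of the 11 above 0, against a median of 0.00609 over all genes tested. One rose (Sox10, a transcription factor of pigment cells and oligodendrocytes, by 0.33 ± 0.09 on the log2 scale, adjusted p = 0.019, lost on leaving out wild type library 1 or 3 or mutant library 2 and against all 8 wild type libraries) and 1 fell (Kit, a growth factor receptor, by 0.46 ± 0.08, adjusted p = 0.002, and 0.081 against all 8 wild type libraries). With the replicate block the counts were 2 and 2, where 15.0% and 16.0% of all genes were called higher and lower. The enzymes and structural proteins that define pigment cells were near 0: Tyr (tyrosinase) had 2 counts, Tyrp1 none and Mlana none in Dnmt3a1-/- cortex, and Tyr and Mlana had none in Dnmt3a1-/- hippocampus. Tyrp1 had 14 counts in Dnmt3a1-/- and 13 in wild type hippocampus. Pmel, a melanosome fibre protein, gave 1.37 to 1.82 CPM in mutant and 1.34 to 1.69 CPM in wild type cortex. In hippocampus 9 of the list were tested and none passed in edgeR, with 3 at an unadjusted p under 0.05. Their median log2 fold change was 0.0719, against 0.00512 over all genes tested.

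Of the inner ear list 12 of 28 genes were tested in cortex Dnmt3a1-/- and 16 in hippocampus, and Otof was the one that passed in each, where 8.95% and 1.65% of all genes were called higher. All 12 had log2 fold changes above 0 in cortex and 13 of 16 in hippocampus. The medians were 0.183 and 0.284, against 0.00609 and 0.00512 over all genes tested. Otof encodes otoferlin, which couples calcium to transmitter release in hair cells. It rose from 16.8 ± 2.05 to 29.4 ± 2.91 CPM in cortex (log2 fold change 0.80 ± 0.10, adjusted p = 0.00041) and from 8.42 ± 1.85 to 19.5 ± 0.833 CPM in hippocampus (1.16 ± 0.14, adjusted p = 0.0019; SD, n = 3, edgeR). The matrix gene Tecta, whose protein is a main part of the tectorial membrane, was at 0.459 ± 0.0337 CPM in mutant and 0.419 ± 0.119 CPM in wild type cortex. Strc, a relative of Otoa, was too low to test in cortex and had a log2 fold change of -0.80 ± 0.32 in hippocampus (adjusted p = 0.20). With the replicate block 2 genes of the list rose in cortex. Of the EAR-repeat family beside Tspear, all 5 were tested and Lgi2 fell in cortex Dnmt3a1-/- (-0.59 ± 0.08, adjusted p = 0.00053), with 1 higher and 2 lower under the replicate block.

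In the list around odorant receptors, 11 of 16 genes were tested in cortex Dnmt3a1-/-. Their median log2 fold change was -0.052, against 0.00609 over all genes tested. Of the 11, 1 rose and 3 fell (4 with the replicate block), where 8.95% and 8.91% of all genes were called higher and lower. The gene that rose was Bbox1, an enzyme of carnitine synthesis (0.69 ± 0.22, adjusted p = 0.045), and its call was lost with DESeq2, with no filter and on leaving out any 1 of the 6 libraries. Those that fell were Reep1 (-0.34 ± 0.07, adjusted p = 0.0068), Adcy3 (-0.39 ± 0.09, adjusted p = 0.0091) and Gnal (-0.31 ± 0.09, adjusted p = 0.037). The call of Gnal was lost on leaving out any wild type library or mutant library 1 or 2 (adjusted p up to 0.13). Adcy3 and Gnal encode the adenylyl cyclase and the G protein of odour transduction, and brain neurons use them too. Omp, the marker protein of mature olfactory neurons, had 14 counts in Dnmt3a1-/- and 18 in wild type cortex. Of the relatives of Rtp1, Rtp2 had 0 and 2 counts, and Rtp4 was not called (0.43 ± 0.15, adjusted p = 0.069) but passed with the replicate block (adjusted p = 0.043). All the odorant receptor genes together, 985 identifiers, gave 9.20 to 12.3 CPM in wild type and 9.60 to 12.6 CPM in mutant cortex, so their sums overlapped.

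Lists around the enzymes and lipid proteins held up to 4 calls each in cortex Dnmt3a1-/-, where 8.95% of all genes were called higher and 8.91% lower. Median log2 fold changes were 0.0614 for liver amino acid breakdown, -0.261 for hydrolases related to Serhl and -0.0433 for SEC14-like genes. In cortex Dnmt3a1-/-, 11 of 27 genes of liver amino acid breakdown were tested: Shmt1, a serine hydroxymethyltransferase, rose (0.67 ± 0.20, adjusted p = 0.033), and Srr and Got1 fell. Srr, serine racemase, which is of the dehydratase family of Sdsl, fell by 0.22 ± 0.07 (adjusted p = 0.042). Of 7 hydrolases related to Serhl, Bphl rose (0.38 ± 0.11, adjusted p = 0.037) and 3 fell, Mest (-0.69 ± 0.09, adjusted p = 0.00048), Abhd6 (-0.58 ± 0.08, adjusted p = 0.0006) and Ephx4 (-0.26 ± 0.08, adjusted p = 0.035). In hippocampus 1 of 6 fell, the epoxide hydrolase Ephx2 (-0.55 ± 0.12, adjusted p = 0.028), where 0.814% of all genes were called lower. Of 8 SEC14-like genes none rose and Clvs1 fell in cortex (-0.32 ± 0.10, adjusted p = 0.033), with 1 in each direction under the replicate block. The calls of Shmt1, Srr, Got1, Bphl, Ephx4, Clvs1 and Ephx2 were each lost on leaving out any 1 of 4 or 5 of the 6 libraries, and their adjusted p reached 0.12, 0.13, 0.2, 0.14, 0.14, 0.11 and 0.12 over the alternatives. Of 23 epididymis genes 1 could be tested in each tissue and 2 in nuclei, and none passed without the block. With the replicate block 1 of the 2 in nuclei was called higher. In Dnmt3a2-/-, Dnmt3a1_delta_N and the labelled nuclei (0.246% of all genes called) none of the 71, 71 and 76 tested genes of these lists passed the edgeR test. An unadjusted p under 0.05 was reached by 6, 8 and 11 of them, and 1, 0 and 6 passed with the replicate block.

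Markers of other cells differed between some of the same libraries. In cortex Dnmt3a1-/- 8.95% of all genes tested were called higher. The summed CPM of 20 choroid plexus markers was 1454 to 2915 in cortex Dnmt3a1-/- against 599 to 1500 in wild type. All 20 had log2 fold changes above 0, with a median of 0.859. Of the 20, 2 were called higher in edgeR, Trpv4 and Steap1, each lost on leaving out single libraries. Steap1 was also lost with the replicate block, at an adjusted p of 0.26. In hippocampus Dnmt3a1-/- libraries 1, 2 and 3 the sum was 1016, 2931 and 246 against 315 to 396 in wild type. All 16 tested markers had log2 fold changes above 0 there, with a median of 1.31. None of the 16 was called in edgeR (1 at an unadjusted p under 0.05), and 1 was called with the replicate block. Otoa was at 9.42, 9.51 and 9.42 CPM in mutant libraries 1, 2 and 3, and whether it or another of the 8 genes followed that sum was not tested. In the nuclei the sums were 195 to 211 CPM in labelled and 207 to 215 CPM in wild type libraries, and most of each sum was Enpp2, at 166 and 185 CPM in labelled and 177 and 178 CPM in wild type libraries. None of the 13 tested was called in edgeR there, with 3 at an unadjusted p under 0.05 and 1 called with the replicate block. Among them Ttr, the main choroid plexus transcript, was at 2.51 and 0.119 CPM in labelled and 4.04 and 8.84 CPM in wild type nuclei, and Clic6 at 6.15 and 4.83 against 3.35 and 3.62 CPM. In cortex Dnmt3a2-/- all 19 tested choroid plexus markers had log2 fold changes above 0 (median 1.65), with none called. Ttr was at 10.8 and 1518 CPM there and at 254 and 18.5 CPM in wild type. In Dnmt3a1_delta_N all 20 lay above 0 (median 0.91), with none called. Of the meningeal markers 16 of 16 lay above 0 in Dnmt3a2-/- (median 0.8, 8 called with the replicate block). In Dnmt3a1_delta_N 8 of 14 did so (median 0.0443).

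Over all genes tested in cortex Dnmt3a1-/-, 8.95% were called higher and 8.91% lower. There, 6 of 10 neuron markers fell (sum 3637 to 3915 against 4063 to 4618 CPM), 2 of 10 oligodendrocyte lineage markers rose, and 3 of 8 astrocyte markers rose and 1 fell. With the replicate block 8 neuron markers fell and 1 rose, and 4 oligodendrocyte lineage markers rose. Among the calls without the block, Gad2 and Nefl of the neuron list, Mobp of the oligodendrocyte list and S100b, Aldh1l1 and Gja1 of the astrocyte list were lost on leaving out single libraries, and the fall of Aqp4 was lost against all 8 wild type libraries (adjusted p = 0.32). Of the endothelium list 3 of 7 fell (sum 623 to 692 against 717 to 832 CPM), and of the meningeal list 3 of 15 fell, Tek of the former and Ccn3 and Col1a1 of the latter being lost on leaving out single libraries. Emcn of the former and Lum of the latter were lost against all 8 wild type libraries (adjusted p = 0.12 and 0.062, edgeR). The summed blood markers were at 433 to 610 CPM against 625 to 938 CPM in wild type. In hippocampus Dnmt3a1-/- the astrocyte marker Aqp4 (-0.68, adjusted p = 0.0072) and the hippocampal neuron markers Nwd2 (-0.64, adjusted p = 0.008) and Wfs1 (-0.44, adjusted p = 0.035) fell in edgeR, each lost on leaving out mutant library 2 or, for Wfs1, any 1 of 3 other libraries. None of the 10 general neuron markers passed in hippocampus or nuclei, with 1 and 0 at an unadjusted p under 0.05. Over all genes tested, 0.814% were called lower in hippocampus. In the nuclei 0.246% were called in either direction, which is 39 genes, and 736 genes with the replicate block. In the labelled nuclei 1 of 6 blood markers fell, Hba-a1 (-1.50, adjusted p = 0.033, lost without any 1 of 3 of the 4 libraries), with 4 lower under the replicate block and a sum of 77.1 to 93.6 against 101 to 126 CPM. The part of these cell types in the values of the 8 genes was not tested.

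Reads outside annotated genes were also compared, since the 8 genes have few reads. Over all cortex libraries, reads with no annotated feature were 9.34% to 10.2% of uniquely placed reads in wild type and 9.37% to 10.8% in mutants. In Dnmt3a1-/- cortex they were 10.6%, 10.3% and 10.8%, against 9.38%, 10.2% and 9.51% in its wild type libraries. Each of these Dnmt3a1-/- libraries lay above all 8 wild type cortex libraries. In hippocampus they were 8.41% to 8.74% in wild type and 9.69% to 10.3% in Dnmt3a1-/-, without overlap. In nuclei they were 28.0% to 29.1% and 28.2% to 30.4%. Whether this share has a part in the values of the 8 genes in cortex or hippocampus was not tested.

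How alike the 8 genes are over the 10 group means of log2(CPM + 0.1) is given as a description, since groups of a comparison share their tissue and groups differ in depth. Dct and Rtp1 were most alike (Pearson's r = 0.919), followed by Tspear and Lcn8 (0.908), Rtp1 and Serhl (0.896) and Dct and Serhl (0.893). Lcn8 had 69 counts in the labelled nuclei and 3 or fewer in each other group, so its correlations rest mostly on those nuclei. Otoa was not close to any of the others, with Rtp1 nearest at 0.620, and Tspear and Rtp1 ran opposite (-0.612). Among the 14038 genes with a mean of at least 0.5 CPM, the closest to Otoa were Tjp3 (0.951), Rcbtb2 (0.927) and Ick (0.909), and the closest to Dct were Ccdc122 (0.984), Aldh6a1 (0.979) and Hpcal1 (0.977). Wipi1 (0.987) and Krt1 (0.984) were among those closest to Rtp1. Those closest to Tspear were Trabd2b (0.962), Myo5c (0.955) and Baz1a (0.946).

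For the remaining genes the closest were Gadd45b (0.919), Hip1 (0.899) and Alox12b (0.897) for Sec14l4, Slc25a45 (0.990), Nat1 (0.987) and Bag3 (0.980) for Serhl, and Dgkz (0.955), Unc13d (0.951) and Trp53i11 (0.914) for Sdsl. For Lcn8, whose profile rests mostly on the labelled nuclei, Fcnaos (0.909) and Timeless (0.904) were among the closest. Some of these genes also passed the test themselves. Over all genes tested, 8.95% were called higher in cortex Dnmt3a1-/- and 0.214% in the labelled nuclei. They were picked for likeness to genes chosen as raised in these same groups, so their calls are a description and no independent test. Besides those below, Ick, Ccdc122, Aldh6a1, Wipi1, Krt1, Gadd45b and Trp53i11 were called higher in cortex Dnmt3a1-/-. Of these, all but Aldh6a1 and Wipi1 lost the call under some alternative. Myo5c, an unconventional myosin of epithelial cells, rose by 2.06 ± 0.24 in cortex Dnmt3a1-/- (adjusted p = 0.00068, edgeR) and by 2.09 ± 0.14 in the labelled nuclei (adjusted p = 3e-06). Slc25a45, a mitochondrial carrier, rose in the labelled nuclei by 1.81 ± 0.31 (adjusted p = 0.022, and up to 0.28 without a wild type library), and Alox12b, a lipoxygenase of skin, rose in cortex by 1.53 ± 0.23 (adjusted p = 0.00082).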

How the data were processed

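RNA of cortex, hippocampus and sorted cortical neuron nuclei was sequenced. Per the submitters' processing notes, reads were aligned to mm9 with STAR 2.5.4a and counted with HTSeq 0.11.0. The authors deposited raw counts, whole reads per gene, with 1 library per file. The annotation release, the strand setting and the treatment of reads with several places are not given in the sources used here. Lines that name no gene held 21.1% to 37.0% of reads and were left out. CPM is counts over the library's gene total.

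Each mutant was compared with its wild type group by edgeR 4.0.16 (R 4.3.3): filterByExpr with the 8 genes kept, TMM scaling and the robust quasi-likelihood test. Benjamini-Hochberg adjustment ran over all genes tested, with calls made at adjusted p under 0.05. The SE was derived from the fold change and the F statistic. Alternatives were the replicate block, DESeq2 1.42.0, its size factors, no filter, all 8 wild type cortex libraries and leaving out each library. The code was tested on simulated data. Counting intervals are exact 95% intervals of a ratio of counts and cover counting error only.

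Same-numbered libraries deviated together in cortex Dnmt3a1-/- (correlations 0.237, 0.376 and 0.184) and in Dnmt3a1_delta_N (0.373, 0.240 and 0.419), all of them above 0.1. The printed calls are those without the block, and blocked values stand beside some, but not all, of the results they change. The likeness of same-numbered libraries comes from the values and not from the labels.

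The genes and lists were chosen with earlier results of these data known. Besides the 8 genes, the text names their neighbours, the 3 genes most alike to each, and up to 3 called genes per list and comparison with the smallest adjusted p. Lists of markers, Dnmt3a and further genes are given as checks, and Tecta, Strc, Omp, Rtp2, Rtp4, Pmel, Tyr, Tyrp1, Mlana, Bbox1, Bphl and the markers named were picked from the lists after their values were seen. Other genes within this rule are not reported here. Promoter windows come from RefSeq (GRCm38.p6). Protein sequences were not used here, and the other 49 samples were not analysed here.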

Additional observations from a re-analysis of the deposited data

How the results depend on the processing

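Counts of called genes moved with the settings. In cortex Dnmt3a1-/- edgeR called 2846 genes, 4943 with the replicate block, and 1600 to 2726 on leaving out 1 library. In cortex Dnmt3a2-/- the count was 1, and 56 with the block, 8 with DESeq2, 64 with no filter, 2 against all 8 wild type libraries and 25 to 155 on leaving out 1 library. In Dnmt3a1_delta_N it was 0, and 124 with the block, 43 with DESeq2, 17 with no filter and 0 to 2 on leaving out 1 library. In hippocampus it was 388, and 245 with the block, 604 with DESeq2, 1039 with no filter and 85 to 793 on leaving out 1 library. In the labelled nuclei it was 39, and 736 with the block, 79 with DESeq2, 243 with no filter and 4 to 371 on leaving out 1 library. Where 1 library of a group was left, it was assumed to vary like the others.

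The median log2 fold change of the 8 genes in cortex Dnmt3a1-/- was 1.90, and 1.55 with DESeq2, 1.69 against all 8 wild type libraries and 1.58 to 2.10 on leaving out 1 library. In the labelled nuclei it was 2.40, 2.49 with DESeq2 and 2.07 to 2.77 on leaving out 1 library. In hippocampus it was 0.52 and ran from 0.32 to 0.81 on leaving out 1 library. In Dnmt3a2-/- it was 0.08, turned to -0.08 against all 8 wild type libraries, and ran from 0.05 to 0.09 on leaving out 1 library, and in Dnmt3a1_delta_N it was 0.22 and ran from 0.13 to 0.50. Col1a1, a fibroblast marker with a log2 fold change of -0.45 in cortex Dnmt3a1-/- (adjusted p = 0.047, edgeR), was at 0.01 against all 8 wild type libraries. The cause of these shifts was not tested. The replicate block brought none of the 8 genes past the test in Dnmt3a2-/- or Dnmt3a1_delta_N. Same-numbered libraries correlated at -0.056, 0.272 and 0.026 in hippocampus, where the numbers were not taken as pairs. In Dnmt3a2-/- and the nuclei they correlated at 0.111 and 0.297, also above 0.1. With 2 libraries a group, however, both same-numbered pairs gave 1 shared value, which cannot show pairing. The numbers were not taken as pairs there either, and the blocked counts of these comparisons are given as alternatives only. Depth limits Lcn8 in tissue and Tspear, Sec14l4 and Otoa in wild type, each from few counts.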

Other observations

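Genes near Lcn8 were looked at after its values were seen. Lcn6, another epididymal lipocalin, had 0 and 1 counts in wild type nuclei and 13 and 10 in the nuclei labelled Dnmt3a1-/-, and none in any cortex or hippocampus library. It was not called in edgeR (adjusted p = 0.089). With the replicate block 1 of the 2 tested genes of the epididymis list, which holds Lcn6, was called higher in these nuclei. Lcn10 had none and 3 counts in the same groups, and Lcn5, the listed neighbour, had 0 and 1. Fcnaos, an antisense gene of Fcna on the other side, had 60 counts in wild type and 117 in the labelled nuclei, a log2 fold change of 1.08 ± 0.33 (adjusted p = 0.25, edgeR).

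Gpnmb, a membrane protein of melanosomes that phagocytes also make, stood on the microglia and phagocyte list. It rose from 2.05 to 2.31 CPM in wild type to 7.58 to 10.3 CPM in Dnmt3a1-/- cortex (log2 fold change 2.03 ± 0.16, adjusted p = 1.3e-05) and from 2.66 to 4.21 CPM to 9.60 to 13.1 CPM in hippocampus (1.65 ± 0.19, adjusted p = 0.0015, edgeR). Of that list it was the 1 gene called higher among 11 tested in cortex and 10 in hippocampus. Over all genes tested, 8.95% and 1.65% were called higher. With the replicate block 2 genes of the list were called higher and 2 lower in cortex. In Dnmt3a1_delta_N Gpnmb was at 3.54 to 4.34 against 1.32 to 2.69 CPM, a log2 fold change of 0.99 ± 0.23 with an adjusted p of 0.45, and 0.018 with the replicate block. In Dnmt3a2-/- it was at 3.33 and 4.33 against 1.81 and 2.54 CPM (adjusted p = 1), and in the labelled nuclei at 2.20 and 2.33 against 1.28 and 1.13 CPM (adjusted p = 0.28). Its libraries did not overlap in any of these comparisons.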
